A study of Mus musculus with 9 samples.

Results

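Erythroid cells of blood carry the adult hemoglobin transcripts, and here they were taken as the cell barcodes of the mouse epididymis in which Hba-a1, Hba-a2, Hbb-bs and Hbb-bt together made up at least 20% of the unique molecular identifiers (UMIs, 1 per captured RNA molecule). The rule first kept barcodes with 300 to 4000 detected genes, at most 20000 UMIs and under 50% mitochondrial UMIs, which left 42087 of 44869 barcodes. Of these, 759 (1.80%) were globin-rich and 41328 were not. The members were chosen by their globin UMIs, so their globin level is a description and was not tested.

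The study profiled single cells of the caput, corpus and cauda epididymis, the proximal, middle and distal segments of the duct in which spermatozoa mature and are stored, from untreated C57BL/6 mice (C57BL/6J in the study's methods) at postnatal day 42 (P42) and day 56 (P56). There were 9 libraries, 1 per segment from 1 P42 pool and 2 P56 pools, each made from the segments of 5 mice, so age and pool cannot be told apart. The cell suspensions had gone through a red blood cell lysis step at 25 °C for 10 min before they were loaded. The libraries held 23114756 to 50655384 UMIs, and 116 of 41926 distinct barcode sequences occurred in more than 1 library, 1 of them that of a globin-rich barcode.

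Hemoglobin is built from alpha and beta globin chains that each hold a heme, the iron-containing ring that binds oxygen. Erythroblasts make the chains, heme and membrane skeleton in the bone marrow and spleen, then expel the nucleus, and the reticulocytes that enter the circulation lose their remaining mitochondria, ribosomes and RNA as they mature. In the adult mouse the alpha chains come from Hba-a1 and Hba-a2 on chromosome 11 and the beta chains from Hbb-bs and Hbb-bt on chromosome 7.

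The 120 bases before the RefSeq start of the 4 genes that define these barcodes, and of Alas2, the erythroid enzyme that starts heme synthesis, are shown because these genes rise together in erythroid cells. Sequences are from RefSeq (GRCm38.p6), 5′ to 3′ on the strand of the gene, and capitals mark a match on either strand to a motif searched for. The motifs were the CACCC box, a site for factors such as Klf1, then the CCAAT box of many promoters, then GATAA, the core of sites for GATA factors, and last ATATAA, a form of the TATA box. Matches that overlap were joined.
Hba-a1, chr11:32283552-32283671 (+ strand): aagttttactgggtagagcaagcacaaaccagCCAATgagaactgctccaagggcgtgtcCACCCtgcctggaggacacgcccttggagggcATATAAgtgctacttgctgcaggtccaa
Hba-a2, chr11:32296372-32296491 (+ strand): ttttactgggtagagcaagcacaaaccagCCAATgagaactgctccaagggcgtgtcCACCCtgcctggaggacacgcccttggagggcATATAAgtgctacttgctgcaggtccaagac
Hbb-bs, chr7:103827929-103828048 (- strand): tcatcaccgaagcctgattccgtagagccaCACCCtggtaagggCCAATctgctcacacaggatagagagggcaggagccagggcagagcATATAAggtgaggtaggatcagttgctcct
Hbb-bt, chr7:103813924-103814043 (- strand): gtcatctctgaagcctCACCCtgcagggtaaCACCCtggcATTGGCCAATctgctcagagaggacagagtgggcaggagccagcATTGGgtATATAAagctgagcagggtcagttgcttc
Alas2, chrX:150547297-150547416 (+ strand): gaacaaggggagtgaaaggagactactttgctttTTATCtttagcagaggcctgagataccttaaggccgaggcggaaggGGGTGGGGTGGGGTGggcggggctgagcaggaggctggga
All 4 globin promoters held the CACCC box, the CCAAT box and the TATA form, a combination present in 94 of 32851 promoters of that length (0.286%). The CACCC box was in 31.7% of these promoters, the CCAAT box in 21.3%, the GATAA core in 10.5% and the TATA form in 4.47%. Alas2 held the CACCC box, read as GGGTG on this strand, and the GATAA core, but neither of the other motifs in this window. The Hba-a1 and Hba-a2 windows shared an unbroken run of 117 bases, whereas the longest run shared by Hbb-bs and Hbb-bt was 14 bases. These matches are descriptions of the sequence and do not show binding.

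Globin-rich barcodes were found in every library, in unequal numbers. In the P42 pool they were 156 of 4209 caput barcodes (3.71%, exact 95% binomial interval 3.16 to 4.32), 356 of 4562 corpus barcodes (7.80%, 7.04 to 8.62) and 99 of 4590 cauda barcodes (2.16%, 1.76 to 2.62). In P56 replicate 1 they were 26 of 4868 caput barcodes (0.534%, 0.349 to 0.782), 59 of 4726 corpus barcodes (1.25%, 0.952 to 1.61) and 2 of 4858 cauda barcodes (0.0412%, 0.00499 to 0.149). In P56 replicate 2 they were 36 of 4910 caput barcodes (0.733%, 0.514 to 1.01), 23 of 4490 corpus barcodes (0.512%, 0.325 to 0.768) and 2 of 4874 cauda barcodes (0.0410%, 0.00497 to 0.148). The cauda share was the lowest of its pool in all 3 pools, and the P42 pool supplied 611 of the 759 barcodes. Intervals cover counting error only.

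Mean shares were 1.66% for caput, 3.19% for corpus and 0.746% for cauda libraries, with 2.44 percentage points between corpus and cauda. The spread of the 3 segment means did not pass (exact permutation test with segment labels permuted within pools, two-sided, p = 0.111, adjusted over 5 tests 0.139, smallest p possible 0.0278). Without the corpus P42 library the plain means of corpus and cauda differed by 0.134 points. The cauda mean then still held its P42 library, at 2.16%. In the P56 pools, corpus and cauda were at 1.25% and 0.0412%, and at 0.512% and 0.0410%. Without the corpus P56 replicate 2 library the plain means differed by 3.78 points, again over unequal pools. In that case the exact permutation test of the 3 means gave p = 0.0278, the smallest possible. Shares of barcodes after a lysis step measure what was left of these cells, and neither the blood in the tissue nor the efficiency of the lysis was measured here.

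**Figure D1:**
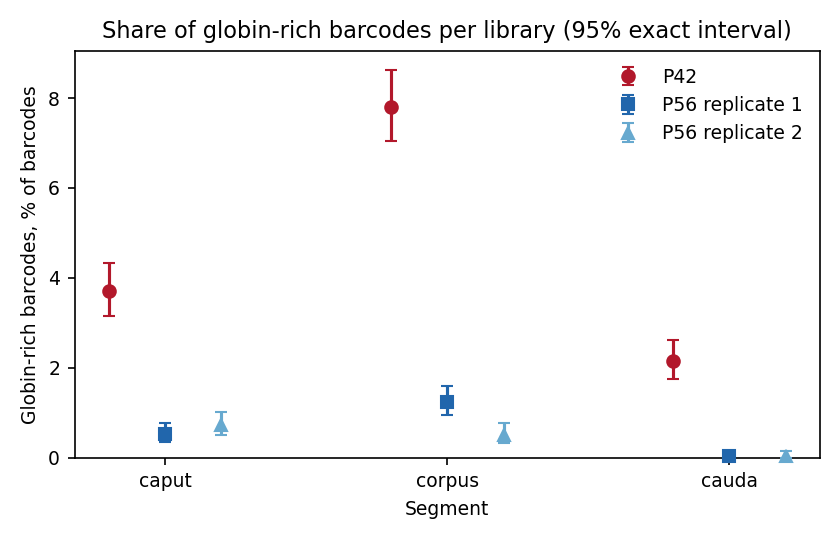
Share of barcodes that were globin-rich in each of the 9 libraries, in percent on the vertical axis, by segment and pool, with exact 95% binomial intervals as bars. The P42 libraries sit highest, from 2.16% to 7.80%, and both cauda P56 libraries lie near 0.04%.

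Globin UMIs were also found in barcodes outside the rule, and no empty range of globin percentage set the globin-rich ones apart. In the P42 pool, over classes of equal width on a log scale, the number of barcodes fell to 41 at 6.31 to 7.94% globin and was higher again, at 118, at 50.1 to 63.1%. Among the barcodes that passed the limits, the globin-rich ones held 56.4% of the adult globin UMIs and 0.62% of the other UMIs. Their median was 3398 UMIs (859 to 15723), with medians of 1453 globin and 1692 other UMIs, against a median of 5607 UMIs with 5 globin UMIs in the other barcodes. The median globin percentage of the members was 43.5% (20.1 to 90.0), and by library it was 40.4%, 46.1% and 48.1% in the P42 caput, corpus and cauda, 37.7%, 42.4% and 32.9% in P56 replicate 1 and 26.2%, 30.02% and 25.3% in P56 replicate 2. Between 20% and 40% lay 336 barcodes, between 40% and 60% 246, between 60% and 80% 155, and at 80% or more 22. Just inside the limit (20 to 22%) were 43 barcodes and just outside it (18 to 20%) 53. A further 94 barcodes with at least 20% globin had under 300 detected genes, so the lower limit on genes removed globin-rich barcodes as well.

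In the barcodes that were not globin-rich, globin took 0.695%, 1.43% and 0.617% of the UMIs in the P42 caput, corpus and cauda, 0.175%, 0.187% and 0.0261% in P56 replicate 1 and 0.409%, 0.289% and 0.0735% in P56 replicate 2. The cauda P56 libraries were lowest here as well. The libraries were made on a chip with 1 well per cell, and free RNA in the wells was not tested as a source of these counts.

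**Figure D2:**
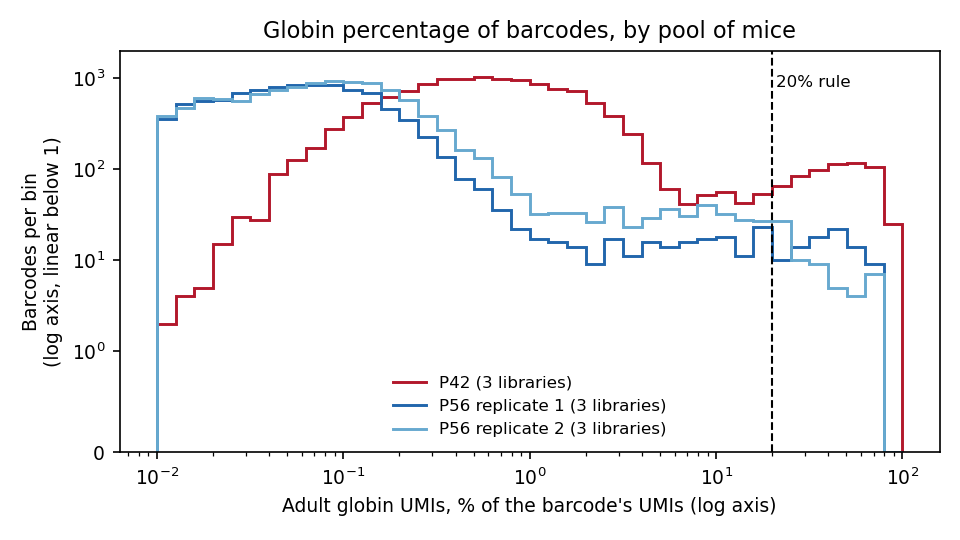
Number of barcodes by adult globin percentage of their UMIs (log axis), for the P42 pool and both P56 pools, with a line at the limit of 20%. Barcodes under 0.01% globin are not drawn (53 in P42, 4614 in P56 replicate 1 and 3010 in P56 replicate 2), and no gap separates the barcodes on either side of the limit.

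The shares of the single globin genes among the globin UMIs varied with the number of globin UMIs in a barcode, not all in 1 direction. Alpha globin took 36.8% to 39.1% over all barcodes with 1 to 100 globin UMIs. In globin-rich barcodes it took 58.8% at 300 to 600, 50.5% at 2000 to 3000 and 53.5% above 3000 globin UMIs. These UMIs chose the members, so the shares are a description with no test. They are shares of UMIs and are not scaled by transcript length. In globin-rich barcodes alpha globin made up 45.7%, 52.8% and 57.0% of the adult globin UMIs in the P42 caput, corpus and cauda, 50.8%, 61.7% and 46.4% in P56 replicate 1 and 49.5%, 58.4% and 48.2% in P56 replicate 2. In the other barcodes of the same libraries it made up 40.0%, 42.4% and 47.4%, then 45.1%, 57.1% and 42.8%, then 48.5%, 51.2% and 45.9%. The globin-rich value was the higher in 9 of 9 libraries, at 52.3% ± 5.61 against 46.7% ± 5.18 (SD, n = 9), a difference of 5.59 points.

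Hbb-bt, the minor of both adult beta globin genes by UMIs, made up 18.01%, 16.5% and 16.8% of beta UMIs in globin-rich barcodes of the P42 caput, corpus and cauda, 19.1%, 17.0% and 19.8% in P56 replicate 1 and 18.3%, 18.3% and 15.3% in P56 replicate 2. The other barcodes of these libraries lay between 7.56% and 13.1%, so the classes did not overlap. The means were 17.7% ± 1.38 and 11.1% ± 1.54 (SD, n = 9), 6.62 points apart and higher in 9 of 9 libraries. Hba-a2 took 43.5% ± 1.46 of alpha UMIs in globin-rich and 43.0% ± 0.681 in other barcodes (SD, n = 9), a difference of 0.527 points, higher in 8 of 9 libraries.

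Above 300 globin UMIs the Hbb-bt share climbed with the globin count of the barcode in both classes. Below that it moved little, from 9.64% to 10.7% over all barcodes with 1 to 100 globin UMIs, and was lower, at 8.96%, in other barcodes with 100 to 300. In globin-rich barcodes it was 7.84% at 300 to 600 globin UMIs, 10.8% at 600 to 1000, 14.0% at 1000 to 1500, 16.4% at 1500 to 2000, 20.1% at 2000 to 3000 and 21.1% above. In other barcodes with the same counts it was 8.37%, 11.7%, 14.2%, 17.5% and 21.9% up to 3000. Among barcodes with 600 to 1500 globin UMIs, in the 7 libraries with at least 5 barcodes of each class, globin-rich and other barcodes had 13.8% and 12.5% Hbb-bt, a difference of 1.295 points, with the share higher in 5 of 7 libraries. Over the same barcodes the alpha shares were 54.4% and 54.4% (difference 0.0256 points) and the Hba-a2 shares 43.4% and 43.7%. This comparison at like globin count was added after the values were known. The transcripts of each pair share long stretches (415 bases for Hba-a1 and Hba-a2, 430 bases for Hbb-bs and Hbb-bt), and the last 100 bases of Hba-a1 all occur in Hba-a2, so the split within the alpha pair is uncertain.

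**Figure D3:**
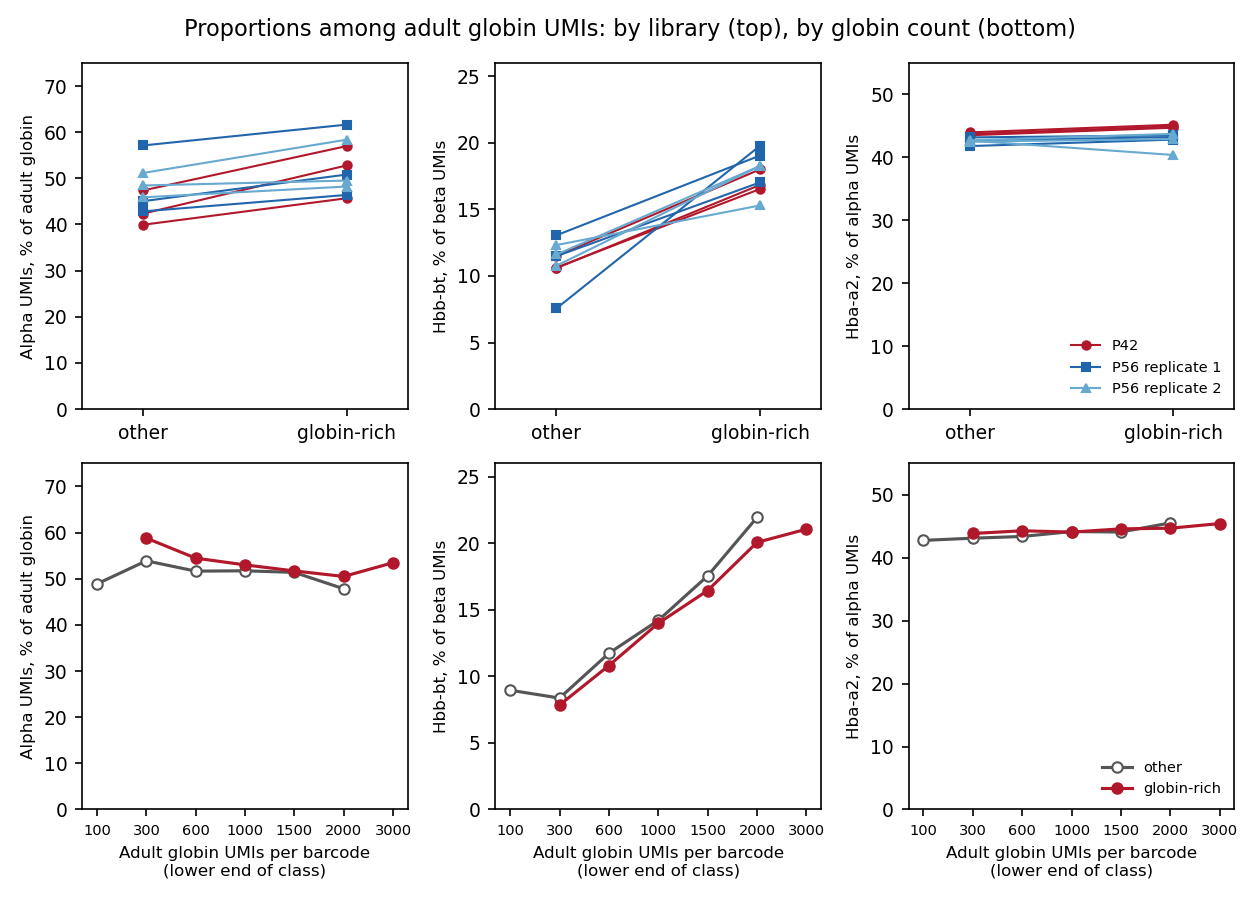
Upper row, alpha share of adult globin UMIs, Hbb-bt share of beta UMIs and Hba-a2 share of alpha UMIs (percent) in other and globin-rich barcodes, 1 line per library. Lower row, the same shares by number of adult globin UMIs per barcode, pooled over libraries; the Hbb-bt share rises from about 8% to above 20% along nearly the same line in both classes.

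Outside the adult alpha and beta genes, the theta globin genes Hbq1a and Hbq1b gave 32 and 23 UMIs in the 759 globin-rich barcodes and 34 and 17 in the 41328 others. Hbq1a lay in 26 globin-rich barcodes of 5 libraries, 11 UMIs each in the P42 caput and corpus. All globin genes were left out of the totals used from here on.

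Genes of late red cell development, such as Alas2, Ube2l6 and Bpgm, were higher in the globin-rich barcodes, as the label erythroid asks. The rule used none of these genes. The gene lists were chosen with earlier results of these data known, however, so they give no independent check of the label. Levels are given as CPM (UMIs of the gene per 1000000 non-globin UMIs). Across all 17279 genes tested, 126 were called higher in globin-rich barcodes (0.729%) and 50 lower (0.289%), with library as a block and a call set at an adjusted p under 0.05 and at least 1 log2 unit. The 6 erythroid lists (heme synthesis, iron, membrane, transcription factors, reticulocyte maturation and other erythroid genes) had 52 tested genes, of which 15 were called higher and 0 lower. The low-count filter could keep a gene on its globin-rich sums alone. Slc4a1 and Trim10, for example, were at most at 0.24 and 0.83 CPM in the other barcodes. A gene kept in that way could hardly be called lower, so the filter in part set the count of 15 against 0. The median log2 fold change over all genes was -0.31, and it moved to -0.07 when libraries were scaled by their totals and to 0.46 in DESeq2. With total scaling 113 genes were called, 111 of them higher, and DESeq2 called 400, all 400 higher, so the lower calls depend on the scaling. They depend on single libraries as well, since 60 of 150 calls were higher without the corpus P42 library and 230 of 321 without the caput P56 replicate 2 library. Of the 15 erythroid genes, 14 kept their call in every alternative in which they were tested, and Mkrn1 lost it only without the library block (1.22, edgeR adjusted p = 0.364). P-values here measure the spread between libraries that are pools of mice.

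Of the heme synthesis list, 2 of 8 tested genes were higher, the first enzyme and the last. Alas2 was at 97.6, 120.6 and 170.1 CPM in the P42 caput, corpus and cauda, at 35.2, 93.6 and 0 in P56 replicate 1 and at 48.0, 65.5 and 0 in P56 replicate 2, against at most 1.8 CPM in other barcodes. Both libraries at 0 are the cauda P56 libraries with 2 globin-rich barcodes each. Its log2 fold change was 6.52 ± 0.28 (SE, edgeR adjusted p = 2.8e-35, 174 UMIs). Fech, which inserts iron into the ring, had a log2 fold change of 2.43 with 316 UMIs, higher in 7 of 9 libraries. The enzymes between them were not called. Slc25a37, the importer that brings iron into mitochondria for heme, was higher by 3.75 log2 units in 8 of 9 libraries, the only one of 9 iron genes called.

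Among 10 tested genes of the red cell membrane, 4 were higher. Among them were Slc4a1, the band 3 anion exchanger (log2 fold change 6.39, 19 UMIs in 4 libraries), and Epb41, protein 4.1 of the skeleton (3.10, 240 UMIs, higher in 8 libraries). Epb41 lay at 134.2, 142.9 and 300.6 CPM in the P42 caput, corpus and cauda and between 0 and 232.6 CPM in the P56 libraries, against 9.5 to 15.3 CPM in other barcodes. Ank1, Add2, Rhag and Kel, further membrane genes, had 0 UMIs in globin-rich barcodes, where 0.701 or fewer would match the others, so this depth cannot show a difference.

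Of 8 tested erythroid transcription factors only E2f2, a cell cycle regulator of the last erythroid divisions, was higher (3.78, 18 UMIs). Gata1 and Klf1, the factors that direct erythroid gene expression, had 0 UMIs, where 0.875 and 0.433 UMIs would match the level in other barcodes, so this depth cannot show a difference. None of 6 tested cell division genes was called.

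The reticulocyte maturation list gave 4 calls of 8 tested genes. Ube2l6, the conjugating enzyme of the ubiquitin-like ISG15, was at 239.2, 302.3 and 487.8 CPM in the P42 caput, corpus and cauda, at 264.4, 149.8 and 232.6 in P56 replicate 1 and at 120.05, 170.4 and 146.4 in P56 replicate 2, against 2.5 to 22.9 in other barcodes. That gave a log2 fold change of 4.83 ± 0.22 (SE, edgeR adjusted p = 5.3e-34). Trim10 (4.91, 17 UMIs), Ube2o, which clears ribosomes from reticulocytes (2.37, 66 UMIs), and Mkrn1, a ubiquitin ligase (1.43, 910 UMIs, higher in 9 of 9 libraries), were the others. Bnip3l, which removes mitochondria from reticulocytes, had a log2 fold change of 0.59 and was not called (edgeR adjusted p = 0.132).

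Of 9 other erythroid genes, 3 were higher. Bpgm makes 2,3-bisphosphoglycerate, which lowers the oxygen affinity of hemoglobin, and stood at 497.9, 510.7 and 731.6 CPM in the P42 caput, corpus and cauda, at 370.1, 252.8 and 232.6 in P56 replicate 1 and at 328.1, 262.1 and 146.4 in P56 replicate 2. Other barcodes were between 10.8 and 31.7 CPM, below every globin-rich library, and the log2 fold change was 3.90 ± 0.24 (SE, edgeR adjusted p = 4.7e-25). Tent5c, a poly(A) polymerase, was higher by 2.79 log2 units. Car1, Alox15 and Epor, the erythropoietin receptor, had 0 UMIs in globin-rich barcodes where 1.27, 1.26 and 0.775 would match the others, too few to show a difference. Plaat3 (1.85) and Tfdp2, a partner of E2F factors (1.20), were also higher in all 9 libraries, and 67 of the 126 genes called higher were higher in 4 libraries or fewer.

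**Figure D4:**
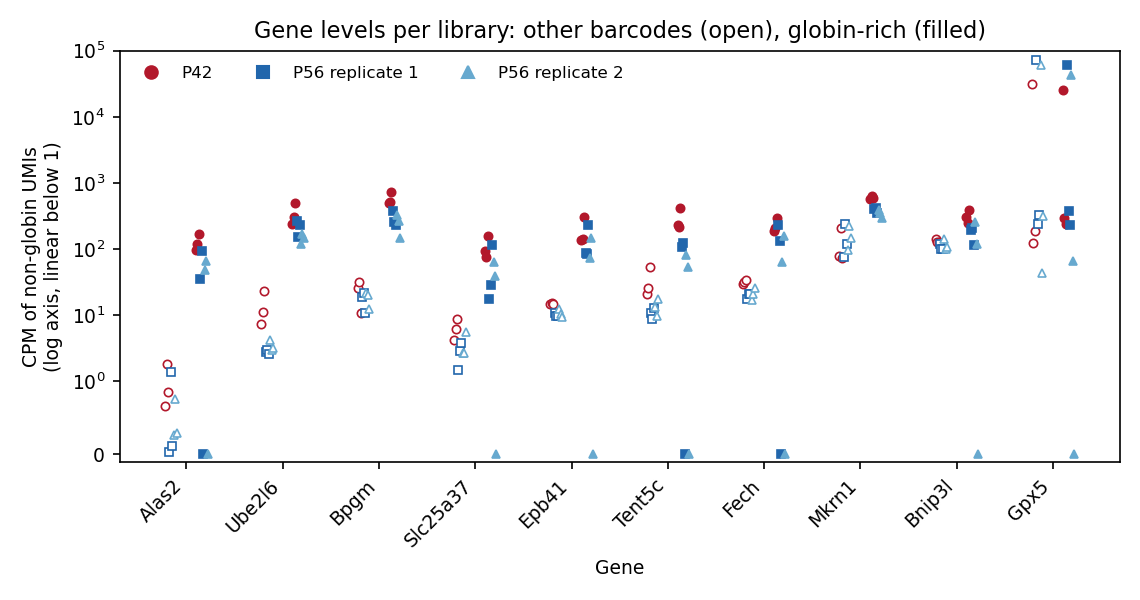
Level of 10 genes in each of the 9 libraries (CPM of non-globin UMIs, log axis that is linear below 1), in other barcodes (open) and globin-rich barcodes (filled), with color and shape for the pool. Ube2l6 and Bpgm lie above the other barcodes in every library. The ranges of the classes overlap for Bnip3l, higher in 8 of 9 libraries, and for Gpx5, higher in 4.

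The levels of these genes followed the globin percentage on both sides of the limit, which is a description with no test. Fewer non-globin UMIs in a barcode raise both its CPM and its globin percentage, so part of this rise is arithmetic. In UMIs, Alas2 gave 64 in 336 barcodes at 20 to 40% globin and 57 in 246 at 40 to 60%. It gave 47 in 155 at 60 to 80% and 6 in 22 above. Bpgm gave 262, 233, 240 and 53 UMIs in the same barcodes. Bpgm was at 17.0 CPM in barcodes under 1% globin, 30.4 at 1 to 5%, 43.5 at 5 to 10%, 118 at 10 to 20%, 243 at 20 to 40%, 599 at 40 to 60%, 1551 at 60 to 80% and 3512 at 80 to 100%, where only 22 barcodes lay. Alas2 went from 0.34 through 18.8 at 10 to 20% to 304 at 60 to 80% and 398 at 80 to 100%, and Ube2l6 from 4.75 through 53.7 to 808 and 1988. The order of the bins was the same for the 3 genes. Just inside and just outside the limit of 20%, Bpgm was at 229.6 and 180.1 CPM, Alas2 at 56.1 and 38.3 and Ube2l6 at 61.2 and 95.8, so Ube2l6 was lower just inside the limit.

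In 300 non-globin UMIs drawn from each barcode, so that all had the same depth, Bpgm was seen in 16.3% of globin-rich and 0.610% of other barcodes, Ube2l6 in 11.2% and 0.157%, and Alas2 in 4.74% and 0.0290%. Without that step the shares with a UMI were 43.9%, 37.0% and 19.2% in globin-rich barcodes. Macrophage barcodes that hold C1q genes, which should lack it, had a drawn Alas2 share of 0.0258%. At least 1 UMI of Alas2, Slc4a1, Trim10 or Ube2l6 was present in 47.6% of globin-rich barcodes (exact 95% binomial interval 44.0 to 51.2), from 41.7% at 20 to 40% globin to 77.3% at 80 to 100%, and in 3.67% of the others. The median non-globin depth fell over the same bins from 2811.5 to 643.5 UMIs. It was 1692 UMIs in all globin-rich and 5585 in all other barcodes, so these shares are not at like depth. Alas2, Slc4a1, Trim10 and Ube2l6 were each called higher in these same globin-rich barcodes. Their joint share is therefore a description and no check of the label.

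**Figure D5:**
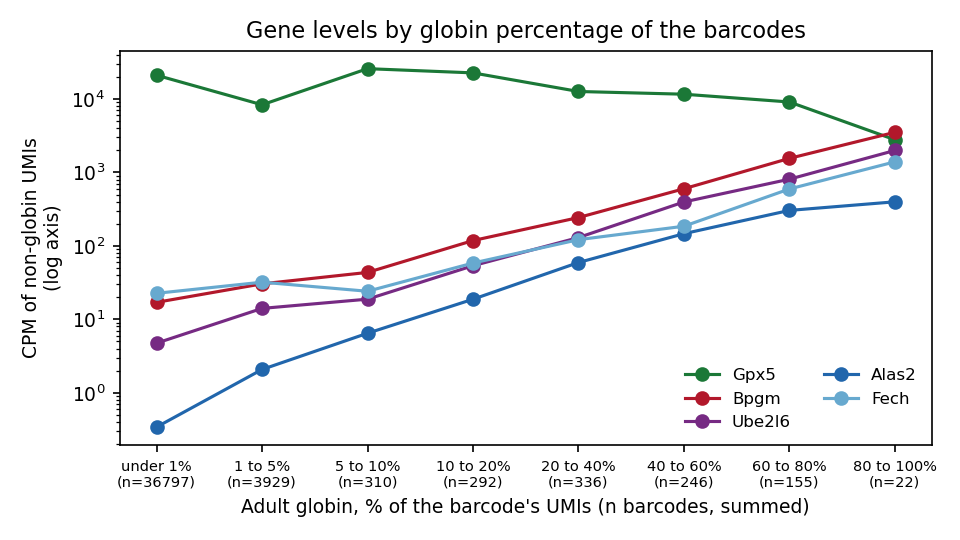
Level of 5 genes (CPM of non-globin UMIs summed over the barcodes of a bin, log axis) by adult globin percentage of the barcode, with the number of barcodes in each bin. Bpgm, Ube2l6 and Alas2 climb to the right, as does Fech apart from a dip at 5 to 10%. Gpx5, an epididymal gene of the caput, shows no steady fall, at 8317 at 1 to 5% and 25795 at 5 to 10%. It is at 2783 in the last bin, which holds only P42 barcodes, and the bins pool all segments.

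Globin-rich barcodes also held the RNA of the epididymis, which the label erythroid does not cover. Gpx5, a glutathione peroxidase that principal cells of the caput secrete, was at 25646, 59995 and 43002 CPM in the globin-rich barcodes of the 3 caput libraries, against 31494, 72283 and 60510 in the other barcodes, and at most 374.5 CPM in the globin-rich barcodes of corpus and cauda. Of 14 principal cell genes 0 were called higher and 1 lower, Ptgds, a prostaglandin D synthase (-1.02, edgeR adjusted p = 0.037). Ptgds lost its call in 14 of 19 alternatives, at -0.40 in DESeq2 (adjusted p = 0.179), -0.38 with libraries scaled by their totals and -0.49 against shallow other barcodes. None of the tested genes was called for basal cells (5), clear and narrow cells (6), fibroblasts (6), myoid cells (6), macrophages (7), T cells (6), B cells (4) and platelets (3). With 0.729% of all genes called higher and 0.289% lower, no call is the usual outcome of lists this short. The summed principal cell markers ranged from 7872 to 146322 CPM over the globin-rich libraries and from 7050 to 173708 over the others. Whether this RNA came from a cell in the same well or from free RNA was not tested.

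Markers of other blood cells were present in part. Of 7 tested neutrophil genes 2 were called higher, Retnlg (2.68) and S100a9 (1.78), but 27 of 32 Retnlg UMIs and 18 of 24 S100a9 UMIs lay in 1 barcode each of the caput P56 replicate 2 library. Without that library S100a9 was at -0.59. Ltf had 187 UMIs in 137 barcodes, where 235.6 would match the other barcodes of the same libraries (ratio 0.794, 0.684 to 0.916), and was not called. S100a8 had 32 UMIs in 12 barcodes. Ngp and Cxcr2 were at 0 UMIs where 0.152 and 0.855 would match the other barcodes, so a 0 shows nothing at this depth. The sum of the 10 markers ran from 0 to 520.2 CPM in globin-rich libraries and from 1.3 to 597.0 in the others. In the others Ltf alone reached 473.3 CPM, against at most 4.4 for Csf3r and 0.68 for Cxcr2. Ltf was also called between segments in globin-rich barcodes, so the sum does not by itself stand for neutrophils. The maximum of 520.2 lay in the caput P56 replicate 2 library, with Retnlg at 216.1 and S100a8 and S100a9 at 152.1 CPM each. Among 8 platelet markers, Pf4 had 151 UMIs in 103 barcodes, where 200.01 would match the other barcodes of the same libraries (ratio 0.755, exact 95% interval 0.639 to 0.885, counting error only), was higher in 3 of 9 libraries and was not called. Itga2b had 35 UMIs in 33 barcodes, while 5 were at 0, among them Ppbp, where 0.620 UMIs would match the others. The summed platelet markers ran from 0 to 351.6 CPM in globin-rich libraries and from 30.7 to 591.1 in the others, and the part of these cells in the results was not tested. Pf4 alone reached 570.6 CPM in the other barcodes. The platelet sum there was highest in the cauda P42 library, where the macrophage sum was highest as well (2148 CPM). Plvap, of fenestrated endothelium (1.18), and Odf1, of the sperm tail (1.31), were 1 called gene of 10 and of 8. Against the count that would match the other barcodes of the same libraries, 7 of the 8 sperm genes had a ratio whose exact 95% interval lay above 1 (counting error only), from 2.015 for Akap4 to 5.34 for Prm1, and so did 5 of the 10 endothelial genes, from 1.47 for Flt1 to 2.30 for Plvap. The other 6 sperm and 4 endothelial genes of these were not called in edgeR, which rests on the spread between libraries. Of 9 libraries, the 7 sperm genes were higher in 2 (Akap4 and Tnp2) to 5 (Odf1 and Smcp). The 5 endothelial genes were higher in 4 (Plvap) to 8 (Emcn). Of the 1161 Prm1 UMIs 900 lay in 1 barcode of the corpus P42 library, and the intervals treat UMIs of 1 barcode as independent. Intervals above 1 were also found, among others, for the T cell genes Cd3d, Trbc2, Nkg7 and Ccl5, for Acta2 of myoid cells and for Ms4a1 of B cells. The principal cell genes listed all had intervals below 1. The share of such intervals over all genes was not computed, so these counts cannot be read as enrichment of a list. Plvap lost its call in 8 of 19 alternatives (0.68 at a 40% globin limit, and 1.26 with an edgeR adjusted p = 0.127 without the caput P42 library), and 22 of its 62 UMIs lay in 1 barcode of that library. Odf1 lost it in 5 of 19, at 0.0011 against shallow other barcodes and at 1.09 without the corpus P42 library, which held 38 of its 50 UMIs. Barcodes with at least 10 sperm UMIs made up 4.35% of the globin-rich (exact 95% binomial interval 3.01 to 6.05) and 2.42% of the other barcodes, those with at least 3 endothelial UMIs 4.35% and 3.598%, and those with at least 3 C1q UMIs 7.11% (5.39 to 9.18) and 9.39%. These shares are not at like depth, since the median barcode held 1692 non-globin UMIs in the globin-rich class and 5585 in the other.

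Of the 50 genes called lower, 28 were lower in all 9 libraries, and the 10 with the largest change among them rested on few UMIs. Cry2, a clock gene, had 0 UMIs where 7.06 would match the other barcodes, at least 2.35-fold lower against a floor of 3 counts. Grk6 and Gm16230 were also at 0. Med17, a Mediator subunit, had 6 UMIs against 23.1, a ratio of 0.260 (exact 95% interval 0.0954 to 0.566, counting error only). Fzd7, Fut4, Klk1b26, Rhbg, Atl2 and H3c4 had 1 to 3 UMIs. Of 18 alternatives the call was lost in 16 for Klk1b26, 14 for H3c4, 13 for Fut4, 10 for Atl2, 9 each for Fzd7 and Gm16230, 6 for Cry2, 4 for Rhbg and 3 for Med17, and in 11 of 17 for Grk6. Of these 50 genes, 17 had 10 UMIs or fewer in globin-rich barcodes. Others held many UMIs at ratios closer to 1. Itm2b had 9642 UMIs (ratio 0.849), Wfdc10 4852 (0.817), Spink10 1737 (0.852) and Defb2 1438 (0.813). In summed UMIs these are smaller changes than the 1 log2 unit that the call asks of the fit.

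The globin-rich barcodes of different segments differed in epididymal genes. Between segments, 356 of 2169 genes differed (16.4%), with 146 peaking in caput, 127 in corpus and 83 in cauda libraries, and 321 of these had their highest level in the same segment in the other barcodes. Lcn6, a lipocalin, was at 952, 1058 and 856 CPM in the 3 caput libraries, 8.93 in the corpus P42 library and 0 in the other 5. Car4, a membrane carbonic anhydrase, was at 296, 393 and 393 CPM in the 3 corpus libraries and 0 in the others. Ly6f ranged from 618 to 1745 CPM in the cauda libraries against 0 to 24.0 in the caput. Ly6g5b and Pate13 for the caput, Gm34646 and Glb1l3 for the corpus and Smpx and Defb9 for the cauda were the other genes named by the rule for segments. All 14 tested principal cell genes differed between segments.

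The erythroid genes were not found to differ between segments. None of the 20 erythroid genes tested was called, against 16.4% of all genes, and the lowest adjusted p was 0.0557, for Car2, a carbonic anhydrase (edgeR). For the 10 tested genes that were higher in globin-rich barcodes, the fitted range between segments was 0.10 to 1.18 log2 units, with adjusted p of 0.271 or more. A p above the threshold does not show that their levels were equal.

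Mitochondrial RNA took a larger part of the non-globin UMIs in globin-rich barcodes than in others of the same library, 10.8%, 13.1% and 9.32% against 6.65%, 6.90% and 6.55% in the 3 caput libraries. In the corpus libraries it took 20.8%, 29.4% and 29.8% against 15.1%, 18.6% and 23.2%, and in the cauda libraries 17.9%, 28.4% and 29.8% against 10.5%, 17.5% and 15.8%. It was higher in 9 of 9 libraries, a comparison that was not tested, and in both classes lower in the caput. The limit of 50% mitochondrial RNA was set on all UMIs, globin included, and so let globin-rich barcodes reach 70.7% of non-globin UMIs against 54.1% in the others. The segment means of 11.1%, 26.7% and 25.4% in caput, corpus and cauda differed by up to 15.6 points, and their spread did not pass (exact permutation test within pools, p = 0.0556, adjusted 0.0926, smallest p possible 0.0278). Gene by gene, 8 of 10 tested mitochondrial genes were called between segments in globin-rich barcodes, against 16.4% of all genes, each highest in the corpus. They were mt-Co1, mt-Cytb, mt-Nd2, mt-Nd4, mt-Nd5, mt-Nd6, mt-Rnr1 and mt-Rnr2, with fitted ranges of 1.26 to 1.96 log2 units and the lowest p for mt-Nd2 (edgeR adjusted p = 8.0e-05). Between globin-rich and other barcodes 0 of 12 tested mitochondrial genes were called, with a median log2 fold change of -0.43 under the scaling used, below the -0.31 of all genes.

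Genes whose segment difference itself differed between the classes numbered 87 of 17279 (0.504%). Nearly all of these calls were lost in some settings, as DESeq2 called 1 gene, which was not among the 87, total scaling called 4, of which 1 was among them, and a 40% globin limit called 0 (edgeR, 629 genes at an unadjusted p under 0.05). In other settings many were kept. Of the 87, 84 were called with no lower limit on detected genes, 83 without mitochondrial genes, 62 with no low-count filter and 53 at a 10% globin limit. The 5 with the lowest p drew much of their count from 1 barcode each. Car3, a carbonic anhydrase of muscle and fat, had 213 of its 225 globin-rich UMIs in 1 barcode of the corpus P42 library. Ldhc, the lactate dehydrogenase of male germ cells, had 45 of 104 in 1 barcode, and Meig1, Rbakdn and Pabpc2 had 28 of 75, 24 of 52 and 23 of 36. By contrast the largest Bpgm count in any globin-rich barcode was 17 of 788. None of the erythroid list genes was among the 87. The number was 24 without the caput P56 replicate 2 library, 203 without the cauda P42 library, 54 without the corpus P42 library and 57 without the caput P42 library.

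Between ages, which here means 1 P42 pool against 2 P56 pools, 5 of 3699 genes were higher at P56 (0.135%) and 172 lower (4.65%), and the median over all genes was -0.47. The P42 libraries come from 1 pool and share their mice, so these p-values measure the spread between libraries and have no replication between pools at P42. DESeq2 called 19 genes, 5 of them higher, and at a 10% globin limit 82 of 422 calls were higher, with a median of -0.11. Of 24 tested erythroid genes 7 were lower at P56 and 0 higher, among them Tent5c (-3.89), Fech (-3.24), Alas2 (-3.18), Bnip3l (-1.43), Bpgm (-1.40) and Ube2l6 (-1.16). Bpgm at 497.9 to 731.6 CPM in P42 and 146.4 to 370.1 in P56 did not overlap, whereas Ube2l6 did. Without the cauda, which falls out when each library must hold at least 10 globin-rich barcodes or when the cauda P42 library is left out, 6 caput and corpus libraries remained and none of the 7 kept the call (Tent5c -1.12, edgeR adjusted p = 0.0565; Alas2 -0.70; Bpgm -0.58, adjusted p = 0.362; Ube2l6 -0.51; Fech -0.39; Bnip3l -0.31). That fit called 63 genes, 20 of them higher at P56, and 2 of the cauda libraries left out held 2 globin-rich barcodes each. Over 17 alternatives, these included, the call was lost in 14 for Alas2, 12 for Bnip3l, 11 for Ube2l6, 7 for Fech and 4 each for Bpgm and Tent5c. Median globin percentages of the members were 40.4 to 48.1% in the P42 libraries and 25.3 to 42.4% in the P56 libraries. At 20 to 40%, 40 to 60% and 60 to 80% globin, Fech was at 134, 197 and 594 CPM in P42. In P56 it was at 87.6, 117 and 596. Alas2 was at 71.6, 143 and 320 CPM in P42 and at 26.9, 167 and 213 in P56, on 5 to 10 UMIs. The part of the globin percentage in the age calls was not tested.

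The genes lowest at P56 in globin-rich barcodes were not erythroid ones. Col1a1, type I collagen of fibroblasts, was at 517 to 6795 CPM in the P42 libraries and 0 to 136 in the P56 libraries (log2 fold change -6.61 ± 0.54, SE, edgeR), and it was also lower at P56 in the other barcodes (-4.43). Col1a2 (-3.92), Col3a1 (-4.37), the immediate early genes Jun (-1.75) and Egr1 (-1.52), and C1qb of macrophages (-4.23) were lower too, and each kept its call without the cauda. The other barcodes were lower at P56 as well in sums of such genes. Their summed immediate early and heat shock genes were at 10162 to 20240 CPM in P42 and 2619 to 8737 in P56. Their summed macrophage genes were at 276 to 2148 and 67.4 to 196 CPM. Col6a5, Col15a1, Col5a2, further collagens, and Cfp, properdin, which had 0 UMIs in every P56 library, were the other genes lowest at P56. CT010467.1, at 7884 to 9456 CPM in P42 and 15351 to 40819 in P56, and Dapl1, at 85.1 to 267 and 280 to 698, were higher at P56 by 1.41 and 1.33 log2 units, and lost the call in 5 and 6 of 17 alternatives. These comparisons rest on 611 globin-rich barcodes at P42 and 148 at P56.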

How the data were processed

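UMI counts per gene and barcode were deposited by the authors as 1 table of 32195 genes and 44869 barcodes over 9 libraries. Per the labels and the study's methods, the authors mapped Singleron GEXSCOPE reads to GRCm38.p6 with STAR 2.7.3a, assigned them to exons of GENCODE M25 and counted UMIs after merging near-identical ones with UMI-tools. Each barcode was tied to its library by its column name. The deposited counts hold barcodes and globin genes that the authors later removed.

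Members and gene lists were chosen with earlier results of these data known. Counts were summed per library and class, 7 globin genes were removed, and sums were tested with edgeR 4.0.16 (quasi-likelihood, TMM scaling, low-count filter, Benjamini-Hochberg adjustment) in R 4.3.3. The tests were members against others (library block), segments (pool block), their interaction, and age. Shares by segment were tested by exact permutation over libraries in Python 3.11.15, on the spread of the 3 segment means. Of 5 exact permutation tests computed, 3 on globin proportions use the UMIs that chose the members, so those are given as values only. Doublets were not called. Precision is limited by 1637882 non-globin UMIs in members, 6832 to 671625 per library, against 261475512 in others.

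Beside list genes, those named are the 10 called genes with the largest change each way that agree in all 9 libraries, 3 per highest segment with 1 order in every pool, the 5 interaction genes of lowest p, and 5 per direction of age whose ranges do not overlap. Of 193 list genes 186 are in the table and 7 were not analysed here, and a few genes that the counts include are not reported here by name. Scripts were tested on simulated data. Alternatives were DESeq2 1.42.0, no TMM, no filter, no block, other globin limits, no mitochondrial genes, leaving out each library, libraries with at least 10 members, shallow others, and barcodes of like globin count. The last 3 were added after seeing the data.

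The pool block was used because each pool's 3 segments share their mice. The P56 replicates deviated together across segments in the other barcodes (correlations 0.160, 0.161 and 0.293 over 7157 genes) but not in globin-rich barcodes (-0.099, 0.073 and -0.085 over 1248 genes).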

Additional observations from a re-analysis of the deposited data

Results flagged for a closer look

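The difference between segments was itself tested between globin-rich and other barcodes, and 87 genes passed. With DESeq2 1 gene passed, with TMM factors of 1 there were 4, and at a 40% globin limit 0 (edgeR, 629 genes at an unadjusted p under 0.05). Of the 87, 84 passed with no lower limit on detected genes and 53 at a 10% globin limit. The 5 with the lowest p (edgeR adjusted p) were Car3 (1.08e-09), Ldhc (2.44e-07), Meig1 (4.49e-07), Rbakdn (4.49e-07) and Pabpc2 (9.04e-07). In each of them 1 barcode of the corpus P42 library held the largest count, between 37.3% (Meig1) and 94.7% (Car3) of the globin-rich UMIs. The part of these barcodes in the result was not tested.

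Below the lower limit of 300 detected genes, outside the comparisons of the report, 94 barcodes had 20% or more globin UMIs. They were 28.4% of all 331 barcodes under that limit and 50.5% of the 186 that met the other limits, on UMIs and mitochondrial RNA. Their Bpgm level was 1663 CPM and their Alas2 level 268 CPM, beside 3997 CPM of Gpx5, and mitochondrial RNA took 33.5% of their non-globin UMIs.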

How the results depend on the processing

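The alternatives moved the totals of genes called. Of the 15 erythroid genes called against other barcodes only Mkrn1 lost its call in an alternative in which it was tested (without the block), whereas the erythroid age calls were lost in 4 to 14 of 17 alternatives. The genes called against other barcodes numbered 400 with DESeq2, 113 with TMM factors of 1, 17 with no replicate block and 47 against shallow other barcodes, and 116 (without corpus P56 replicate 1) to 321 (without caput P56 replicate 2) when 1 library was left out, against 176. Those between segments numbered 165 at a 40% globin limit, 545 with no filter and 220 (without corpus P42) to 358 with 1 library left out. The interaction gave 0 genes at 40% (edgeR, 629 at an unadjusted p under 0.05), 1 with DESeq2, 4 with TMM factors of 1, and 24 to 203 with 1 library left out. Between ages there were 422 genes at a 10% limit, 33 at 40%, 19 with DESeq2, 114 with TMM factors of 1, 63 without the cauda (1 fit, since both asking for at least 10 members and leaving out cauda P42 remove that segment), up to 177 with 1 other library left out, 84 without corpus P42 and 115 without caput P56 replicate 2.

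The segment difference in the mitochondrial percentage was 14.8 points at a 10% limit (exact permutation p = 0.0278), 15.6 with no replicate block (exact permutation p = 0.025) and 14.1 to 18.5 with 1 library left out. The globin-rich share differed by 0.134 to 3.78 points with 1 library left out. Both of these ranges are differences of plain segment means, which then rest on unequal pools. The Hba-a2 difference was 1.21 points at 10%, 0.684 at 40% and 0.925 in libraries with at least 10 members, 0.437 to 0.878 with 1 left out, and reversed at -0.207 in barcodes of like globin count. There the alpha difference was 0.0256 and the Hbb-bt difference 1.295, whereas leaving out 1 library gave 4.98 to 6.15 and 5.92 to 7.07. S100a9 reversed to -0.53 and Retnlg to -0.87 at 40%, and S100a9 ran from -0.59 without caput P56 replicate 2 to 2.49 without corpus P42. No block could be fitted for age, since each pool has 1 age. Without the block the segment test called 268 genes. With 2 members in each cauda P56 library, few genes can be compared there. The causes were not tested.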

Other observations

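Among genes on no list, some were high in globin-rich barcodes and spread over many of them, named here after their values were seen. Fam220a had 297 UMIs in 194 barcodes (log2 fold change 3.21), and Rsad2, the antiviral protein viperin, had 192 UMIs in 107 barcodes (3.05). Tspo2, a translocator protein of erythroid cells, had 20 UMIs in 17 barcodes and 12 UMIs in all other barcodes, and Apol11b had 23 UMIs in 19 barcodes. Slc25a39, a mitochondrial carrier needed for heme synthesis (1.35), and Isca1, which assembles iron-sulfur clusters (1.48), were higher as well.

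In other genes a few barcodes held much of the sum. Cxcl13, a chemokine, had 118 of 123 UMIs in 1 barcode of the corpus P42 library, and Prm1, the protamine of sperm chromatin, 900 of 1161 in 1 barcode of the same library. Smcp, of the sperm mitochondrial capsule, had 1176 UMIs in 205 barcodes, 38.8% of them in 5 barcodes and 962 in the corpus P42 library.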
